A study of Mus musculus with 4 samples.

Results

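The levels of 9 ion channel genes were followed across the endocrine cells of the mouse islet of Langerhans: Abcc8, Kcnj11, Kcnk16, Trpm5, Trpm3, Cacna1c, Cacna1d, Cacna1a and Scn9a. They were chosen by symbol as channels that set islet cell excitability, and all 9 were found in the count matrices. Single-cell RNA was measured in 4 libraries of islets from female mice on the C57b6/J background. One library came from CCR2-DTR mice of 6 months, 1 from CCR2-DTR mice of 1 month, 1 from WT littermates (CCR2-DTR-/-) of 6 months and 1 from WT littermates of 1 month. The CCR2-DTR mice carried 1 copy of a transgene that puts the diphtheria toxin receptor on cells expressing the chemokine receptor CCR2. Every mouse, WT included, had received diphtheria toxin in 4 injections 48 hours apart from postnatal day 2, and was weaned on day 21 to regular chow. Each library was made from 300 islets, pooled over 2 to 3 mice, so there was 1 pooled sample for each genotype and age.

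Secretion from islet cells follows electrical activity. In beta cells, glucose metabolism closes ATP-sensitive potassium channels, the membrane depolarizes, and voltage-gated calcium channels open to admit the calcium that triggers insulin release. Alpha cells (glucagon), delta cells (somatostatin) and pancreatic polypeptide cells use many of the same channels, together with voltage-gated sodium channels and cation channels of the melastatin family that shape the potential between action potentials.

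Cells were sorted in silico by the share of a barcode's UMIs that came from its hormone: at least 10% insulin (Ins1 and Ins2 together) for beta barcodes and at least 2% Gcg, Sst or Ppy for alpha, delta and Ppy-rich barcodes, with exactly 1 gate passed. In the order CCR2-DTR 6 months, CCR2-DTR 1 month, WT 6 months and WT 1 month, this gave 1924, 3445, 1673 and 3626 beta barcodes, 812, 2425, 646 and 2285 alpha barcodes, 144, 380, 193 and 290 delta barcodes, and 122, 254, 177 and 314 Ppy-rich barcodes. Levels are given as CPM, the UMIs of a gene in a gate for every 1000000 UMIs of that gate, with the 7 hormone genes left out of the total. Those 7 genes held 47.4% to 54.1% of the UMIs in beta barcodes and 22.0% to 23.8% in delta barcodes.

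The libraries held 60315217 to 121292320 UMIs each, and 3633 to 8736 barcodes passed the filters. Beta markers summed to 5969 to 6305 CPM in beta barcodes and at most 1568 CPM in the other gates. Delta markers summed to 5882 to 8387 CPM in delta barcodes and at most 1655 CPM, in alpha barcodes, in the other gates. Alpha markers summed to 34188 to 51035 CPM in alpha barcodes and at most 4677 CPM, in Ppy-rich barcodes, in the other gates. The 4 markers of pancreatic polypeptide cells that are not hormones summed to 723 to 794 CPM in Ppy-rich barcodes and to 766 to 865 CPM in alpha barcodes, so the Ppy-rich barcodes are called by their gate. Beta barcodes under 5000 UMIs made up 37.3% in CCR2-DTR 6 months, 14.9% in CCR2-DTR 1 month, 60.3% in WT 6 months and 3.45% in WT 1 month. For the 9 genes, beta values in barcodes of at least 5000 UMIs are given where a call changed or a ratio left its counting interval. Pairs of libraries shared 6 to 34 barcode sequences, at most 0.422% of the smaller library. Differences between gates were tested across the 4 libraries with edgeR's quasi-likelihood test, library as block, and Benjamini-Hochberg adjustment over 13658 genes, and a gene was called at an adjusted p of at most 0.05. A log2 difference is the fitted one, on totals scaled by edgeR's TMM factors. These were 0.917 to 0.963 in alpha and 1.07 to 1.09 in delta barcodes. CPM levels carry no such scaling, so levels and fitted differences can disagree in size or, near 0, in sign. The standard error (SE) was computed as the absolute log2 difference over the square root of its F statistic.

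Abcc8 and Kcnj11 encode the regulatory sulfonylurea receptor and the pore of the ATP-sensitive potassium channel, the target of sulfonylurea drugs. In GRCm38 both lie on the minus strand of chromosome 7, Kcnj11 at 46093953 to 46100764 and Abcc8 at 46104523 to 46180033, with 3758 bases between them. Both were highest in delta barcodes, and the gates came in different orders for the subunits.

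Abcc8 stood in beta barcodes at 434 CPM in CCR2-DTR 6 months, 368 in CCR2-DTR 1 month, 449 in WT 6 months and 375 in WT 1 month. In delta barcodes the same libraries had 566, 513, 624 and 492 CPM. Every delta value lay above every beta value, and the log2 difference of beta over delta was -0.29 ± 0.0526 (SE, adjusted p = 0.000143). Alpha barcodes averaged 354 ± 20.5 CPM and Ppy-rich barcodes 396 ± 25.3 CPM (SD, n = 4 libraries each). Beta and Ppy-rich barcodes were next to each other in the order of means and their libraries overlapped (log2 difference 0.07, adjusted p = 0.301). Alpha and Ppy-rich barcodes were not told apart either (-0.06, adjusted p = 0.48). Beta over alpha reached 0.13 ± 0.0509 (adjusted p = 0.0423), a call that was lost without any 1 of the libraries (adjusted p = 0.147 without CCR2-DTR 6 months, 0.128 without CCR2-DTR 1 month, 0.0538 without WT 6 months, 0.156 without WT 1 month), and 0.253 without the library block. With all UMIs, hormones included, as the total, beta fell below alpha (-0.27, adjusted p = 0.00253) and below Ppy-rich barcodes (-0.20, adjusted p = 0.0313).

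Kcnj11 was lowest in beta barcodes, and the order upward was alpha, Ppy-rich and delta. Beta barcodes held 54.7 CPM in CCR2-DTR 6 months, 45.1 in CCR2-DTR 1 month, 55.8 in WT 6 months and 56.8 in WT 1 month, and delta barcodes 94.7, 80.0, 96.8 and 94.5 CPM. The pore subunit was lower in beta than in delta barcodes by a log2 difference of -0.64 ± 0.0727 (adjusted p = 7.02e-07). It was also lower in beta than in alpha barcodes (-0.39 ± 0.062, adjusted p = 2.78e-05), where it averaged 66.1 ± 2.53 CPM (SD, n = 4 libraries). No library value of beta barcodes reached any of alpha, delta or Ppy-rich barcodes. Ppy-rich barcodes averaged 81.0 ± 11.4 CPM and did not differ from delta barcodes beyond the spread (0.06, adjusted p = 0.682). Alpha over delta was -0.25 ± 0.0728 (adjusted p = 0.00962), and this call was lost without CCR2-DTR 6 months (adjusted p = 0.063), without WT 1 month (0.0502) and without the library block (0.0627). Alpha over Ppy-rich was -0.19 (adjusted p = 0.0669) and was called only without CCR2-DTR 1 month among the 4 (-0.26, adjusted p = 0.0357). In endothelial barcodes, used here as a level of background RNA, Kcnj11 stood at 0 to 4.73 CPM and Abcc8 at 17.4 to 37.7 CPM.

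**Figure D1:**
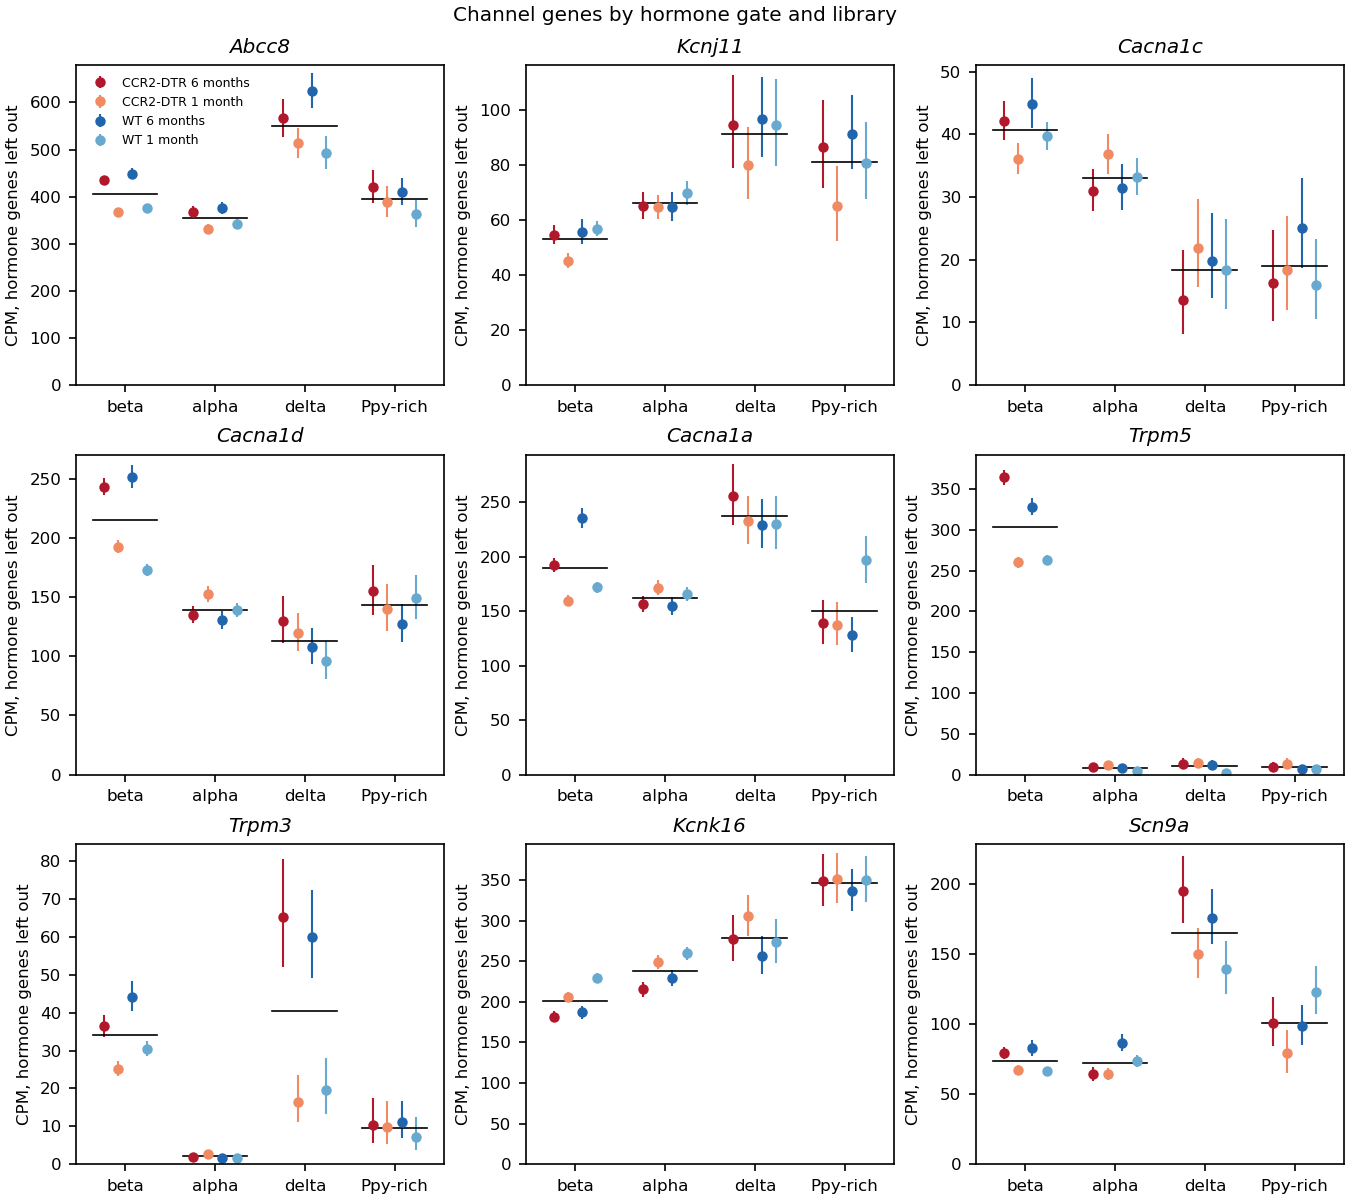
Level of each of the 9 channel genes (y axis, CPM without hormone genes, from 0) in the 4 hormone gates (x axis). Points are libraries with their 95% Poisson counting interval and the line is the mean of 4 libraries; Trpm5 stands at 260 to 364 CPM in beta barcodes and at most 13.9 CPM in the other gates, and Kcnk16 is lowest in beta and highest in Ppy-rich barcodes.

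Kcnk16 encodes a tandem-pore background potassium channel that is strongly enriched in the pancreatic islet and damps beta cell calcium entry. Beta barcodes were lowest for it and Ppy-rich barcodes highest. Beta barcodes held 182 CPM in CCR2-DTR 6 months, 206 in CCR2-DTR 1 month, 187 in WT 6 months and 229.7 in WT 1 month. Ppy-rich barcodes held 349, 351, 336 and 349.9 CPM in the same libraries. The Ppy-rich range of 336 to 351 CPM lay above the values of every other gate, and beta over Ppy-rich was -0.76 ± 0.0669 (adjusted p = 3.28e-08). Alpha barcodes averaged 238 ± 19.8 CPM and delta barcodes 278 ± 19.9 CPM (SD, n = 4 libraries each). Both were below Ppy-rich barcodes, with log2 differences of -0.44 ± 0.0668 for alpha (adjusted p = 6.74e-05) and -0.43 ± 0.0707 for delta (adjusted p = 0.000163); with all UMIs as the total, delta over Ppy-rich turned to 0.09 (adjusted p = 0.291). Beta over alpha was -0.31 ± 0.0633 (adjusted p = 0.000341) and beta over delta -0.33 ± 0.0675 (adjusted p = 0.000519). Alpha and delta barcodes were not told apart in this fit (-0.02, adjusted p = 0.885), but with plain totals in place of TMM scaling alpha was lower (-0.23, adjusted p = 0.00714).

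The gene lies on the minus strand of chromosome 14 at 20261376 to 20269199 (GRCm38), where no other gene overlaps it. The bases before its RefSeq start are shown because Kcnk16 is the member with its highest level outside beta and delta barcodes (RefSeq GRCm38.p6, minus strand, chr14:20269270-20269519, written 5′ to 3′). Capitals mark the last 35 bases before the start.
Kcnk16: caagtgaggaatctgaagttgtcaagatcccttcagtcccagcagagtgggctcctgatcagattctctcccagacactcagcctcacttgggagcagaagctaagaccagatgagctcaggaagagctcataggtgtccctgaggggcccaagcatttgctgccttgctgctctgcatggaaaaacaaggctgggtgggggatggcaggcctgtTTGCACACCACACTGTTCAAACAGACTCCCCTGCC
The 6 motifs searched on both strands were the homeodomain core TAATTA, the MAF recognition element core TGCTGA, the NeuroD type E-box CAGATG, the cyclic AMP element TGACGTCA, the TATA box TATAAA and the Sp1 type GC box GGGCGG. The window held CAGATG once, at position -142 relative to the start, a match that 14.4% of the 32851 windows of the same length held. A match is a description of letters and not of a bound site.

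Trpm5 encodes a calcium-activated cation channel that passes sodium and depolarizes the cell. It was the member most restricted to 1 gate. In beta barcodes Trpm5 stood at 364 CPM in CCR2-DTR 6 months, 260.2 in CCR2-DTR 1 month, 328 in WT 6 months and 263 in WT 1 month. Alpha barcodes of the same libraries held 8.94, 11.3, 8.30 and 4.72 CPM, delta barcodes 12.9, 13.9, 12.1 and 2.63 CPM, and Ppy-rich barcodes 8.89, 13.5, 7.03 and 6.53 CPM. The groups were far apart, with log2 differences of 5.14 ± 0.158 for beta over alpha (adjusted p = 1.02e-14), 5.01 ± 0.206 over delta (adjusted p = 9.73e-13) and 5.15 ± 0.214 over Ppy-rich barcodes (adjusted p = 1.73e-12). Alpha, delta and Ppy-rich barcodes did not differ from each other beyond the spread (adjusted p = 0.762 to 0.985).

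The Trpm5 level of alpha, delta and Ppy-rich barcodes lay near that of endothelial and stromal barcodes, taken as background RNA. Endothelial barcodes held 13.7 CPM in CCR2-DTR 6 months, 13.4 in CCR2-DTR 1 month, 14.8 in WT 6 months and 5.80 in WT 1 month, and stromal barcodes 9.06 to 14.8 CPM. Alpha barcodes stood at or below the endothelial level in all 4 libraries. Shares at equal depth were taken in barcodes thinned to 2000 non-hormone UMIs, and shallower ones were left out: 603 beta barcodes in CCR2-DTR 6 months, 431 in CCR2-DTR 1 month, 824 in WT 6 months and 100 in WT 1 month, 0 to 68 alpha barcodes and 3 to 101 endothelial barcodes. Trpm5 was then seen in 48.3% of beta barcodes in CCR2-DTR 6 months, 37.5% in CCR2-DTR 1 month, 45.1% in WT 6 months and 38.0% in WT 1 month. The shares in alpha barcodes were 1.75%, 2.21%, 1.24% and 0.939%, and in endothelial barcodes 3.83%, 3.21%, 1.75% and 1.205%. Unthinned, 46.0% to 75.7% of beta barcodes and 2.17% to 9.38% of endothelial barcodes had a Trpm5 UMI, at median depths of 2428 to 21407.5 and 3109 to 5878.5 UMIs. Intervals on such shares cover counting error only.

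Trpm5 lies on the minus strand of chromosome 7 at 143069153 to 143094642 (GRCm38). Its 3′ end overlaps the opposite-strand gene Tssc4, which had 111 to 146 CPM in beta barcodes and 42.4 to 57.3 CPM in alpha barcodes. Whether strand was used in the counting is not given in the sources used here, so the counts of the pair cannot be told apart with certainty. The bases before the RefSeq start are shown for the member with the steepest difference between gates (chr7:143094643-143094892, minus strand, RefSeq GRCm38.p6, last 35 bases in capitals).
Trpm5: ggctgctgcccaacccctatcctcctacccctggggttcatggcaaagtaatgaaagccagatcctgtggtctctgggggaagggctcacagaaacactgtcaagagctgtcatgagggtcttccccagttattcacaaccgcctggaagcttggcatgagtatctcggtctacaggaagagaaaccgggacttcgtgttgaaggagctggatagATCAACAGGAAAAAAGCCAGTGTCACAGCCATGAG
None of the 6 motifs occurred in this window.

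Trpm3 encodes a steroid- and heat-sensitive cation channel of the same melastatin family, permeable to calcium. It was shared by beta and delta barcodes. Beta barcodes held 36.4 CPM in CCR2-DTR 6 months, 25.2 in CCR2-DTR 1 month, 44.1 in WT 6 months and 30.4 in WT 1 month. Delta barcodes held 65.2, 16.5, 60.0 and 19.7 CPM. The delta value lay above the beta value in both 6 months libraries and below it in both 1 month libraries. The fitted difference of beta over delta, taken over both ages, was -0.02 ± 0.22 (adjusted p = 0.943) and does not describe either age alone. Alpha barcodes held 2.00, 2.76, 1.66 and 1.73 CPM, beside 0.976, 2.36, 1.64 and 2.23 CPM in endothelial barcodes, so that alpha barcodes stood near the background level. Beta over alpha was 3.90 ± 0.244 (adjusted p = 1.32e-10) and alpha over delta -3.93 ± 0.295 (adjusted p = 4.89e-09). Ppy-rich barcodes stood between, at 10.4, 9.91, 11.05 and 7.13 CPM. Beta over Ppy-rich was 1.88 ± 0.297 (adjusted p = 3.85e-05), alpha over Ppy-rich -2.02 ± 0.419 (adjusted p = 0.00131) and delta over Ppy-rich 1.90 ± 0.332 (adjusted p = 0.000282).

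Trpm3 is a gene of 856365 bases on the plus strand of chromosome 19, from 22139046 to 22995410 (GRCm38). RefSeq gives starts far apart, and the 250 bases before each are shown because the RNA counts do not say which start was used (GRCm38.p6, plus strand, chr19:22138796-22139045 and chr19:22447958-22448207, last 35 bases in capitals).
Trpm3 first start: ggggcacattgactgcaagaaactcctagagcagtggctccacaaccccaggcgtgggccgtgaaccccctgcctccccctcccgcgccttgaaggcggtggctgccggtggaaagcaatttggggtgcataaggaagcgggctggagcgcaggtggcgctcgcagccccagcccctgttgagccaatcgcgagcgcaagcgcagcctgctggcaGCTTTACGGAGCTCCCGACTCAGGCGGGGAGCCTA
Trpm3 second start: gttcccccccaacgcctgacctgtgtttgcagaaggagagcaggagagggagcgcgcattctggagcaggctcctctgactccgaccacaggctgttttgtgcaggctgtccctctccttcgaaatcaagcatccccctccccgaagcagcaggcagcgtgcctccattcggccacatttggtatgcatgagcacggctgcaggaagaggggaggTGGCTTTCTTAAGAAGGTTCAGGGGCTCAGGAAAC
Neither window held any of the 6 motifs.

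**Figure D2:**
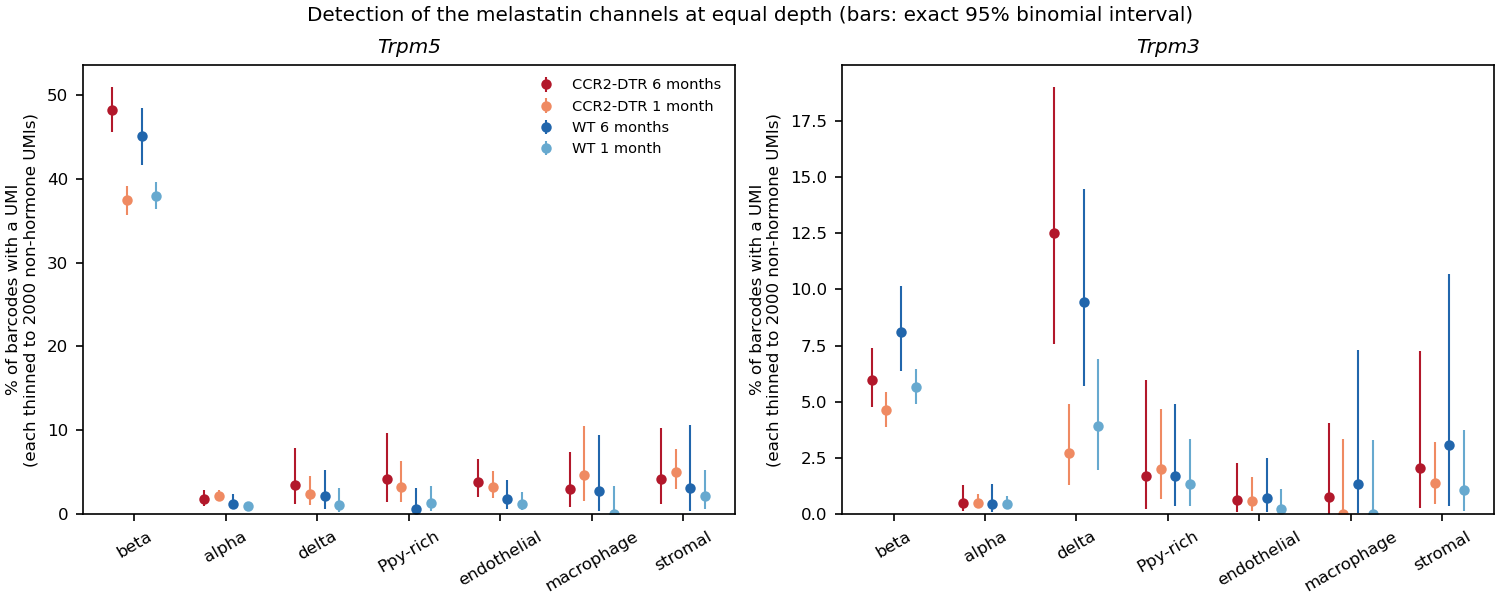
Share of barcodes with at least 1 UMI of Trpm5 (left) or Trpm3 (right) after thinning to 2000 non-hormone UMIs, shallower barcodes left out (y axis, percent), in the 4 gates and in endothelial, macrophage and stromal barcodes (x axis). Points are libraries with exact 95% binomial intervals; Trpm5 is seen in 37.5% to 48.3% of beta barcodes, and Trpm3 in delta barcodes stands at 12.5% and 9.42% at 6 months, against 2.70% and 3.91% at 1 month.

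Cacna1c, Cacna1d and Cacna1a encode pore subunits of voltage-gated calcium channels. Cacna1c and Cacna1d form L-type channels, which carry much of the calcium for insulin release in mouse beta cells, and Cacna1a forms the P/Q-type channel of fast exocytosis. Both L-type genes were higher in beta than in delta barcodes, and Cacna1a was not.

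Cacna1c held 42.2 CPM in CCR2-DTR 6 months, 36.05 in CCR2-DTR 1 month, 44.9 in WT 6 months and 39.7 in WT 1 month of beta barcodes. Delta barcodes held 13.6, 21.9, 19.8 and 18.4 CPM. The groups did not overlap, and the log2 difference was 1.26 ± 0.132 (adjusted p = 2.61e-07). Delta and Ppy-rich barcodes, the second at 19.0 ± 4.23 CPM (SD, n = 4 libraries), were not told apart (adjusted p = 0.599). Alpha barcodes averaged 33.1 ± 2.65 CPM and were above delta by 1.04 ± 0.135 (adjusted p = 5.84e-06) and above Ppy-rich barcodes by 0.89 ± 0.136 (adjusted p = 7.77e-05). Beta was above Ppy-rich barcodes by 1.11 ± 0.132 (adjusted p = 1.45e-06). Beta over alpha was only 0.22 ± 0.0855 (adjusted p = 0.0324). That call was lost without CCR2-DTR 6 months (adjusted p = 0.134), without WT 6 months (0.102), without WT 1 month (0.134), without the library block (0.0921) and in barcodes of at least 5000 UMIs (0.125), and with all UMIs as the total the difference was -0.17 (adjusted p = 0.128). Stromal barcodes held 41.9 to 70.2 CPM of Cacna1c, and stromal markers summed to 62.8, 270.1, 23.5 and 87.2 CPM in beta barcodes; their part in the beta level was not tested.

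Cacna1d held 243 CPM in CCR2-DTR 6 months, 193 in CCR2-DTR 1 month, 252 in WT 6 months and 173 in WT 1 month of beta barcodes. Alpha barcodes held 135, 153, 131 and 139 CPM and delta barcodes 129.6, 119, 108 and 95.8 CPM. Every beta value lay above every value of the other 3 gates. The differences were 1.06 ± 0.0998 over delta (adjusted p = 6.68e-08), 0.61 ± 0.0973 over Ppy-rich (adjusted p = 4.12e-05) and 0.54 ± 0.0869 over alpha barcodes (adjusted p = 2.93e-05). With all UMIs as the total, beta over alpha was 0.15 and no longer called (adjusted p = 0.226). Alpha was above delta (0.52 ± 0.101, adjusted p = 0.000456), and delta was below Ppy-rich barcodes (-0.45 ± 0.111, adjusted p = 0.00515), which averaged 143 ± 11.9 CPM; with all UMIs as the total those were 0.13 (adjusted p = 0.383) and 0.06 (adjusted p = 0.695). Alpha and Ppy-rich barcodes were not told apart (adjusted p = 0.662).

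Cacna1a was highest in delta barcodes. Beta barcodes held 192 CPM in CCR2-DTR 6 months, 159.6 in CCR2-DTR 1 month, 235 in WT 6 months and 172 in WT 1 month, and alpha barcodes spanned 154 to 171 CPM. Delta barcodes held 256, 232, 229 and 230.4 CPM, and Ppy-rich barcodes 139, 137, 128 and 197 CPM. In the order delta, beta, alpha, Ppy-rich no gate differed from the next beyond the spread: beta over delta was -0.19 (adjusted p = 0.175), beta over alpha 0.15 (adjusted p = 0.225) and alpha over Ppy-rich 0.21 (adjusted p = 0.197). Gates further apart did differ, with delta over Ppy-rich at 0.55 ± 0.124 (adjusted p = 0.0026), alpha over delta at -0.34 ± 0.112 (adjusted p = 0.0223) and beta over Ppy-rich at 0.36 ± 0.116 (adjusted p = 0.0143). Several of these calls turned on 1 library. Without WT 6 months, beta over Ppy-rich was 0.19 (adjusted p = 0.179) and beta over delta was called at -0.30 (adjusted p = 0.0269). With barcodes of at least 5000 UMIs, in which beta barcodes held 173, 157, 179 and 172 CPM, beta over delta was called (-0.31 ± 0.0826, adjusted p = 0.00406), and beta over Ppy-rich was 0.25 ± 0.087 (adjusted p = 0.0235). Without CCR2-DTR 6 months, alpha over delta was not called (adjusted p = 0.13) and neither was beta over Ppy-rich (0.0814). Without WT 1 month, alpha over Ppy-rich was called at 0.37 (adjusted p = 0.0258).

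Scn9a encodes a voltage-gated sodium channel of fast inactivation, known for its role in pain neurons and as a major sodium channel of mouse beta cells. It was highest in delta barcodes. Beta barcodes held 79.2 CPM in CCR2-DTR 6 months, 67.2 in CCR2-DTR 1 month, 82.7 in WT 6 months and 66.2 in WT 1 month. Alpha barcodes held 64.2, 64.4, 86.3 and 73.5 CPM and delta barcodes 195, 149.8, 175 and 139 CPM. Every delta library stood above every library of the other gates. Beta over delta was -1.01 ± 0.105 (adjusted p = 2.37e-07), alpha over delta -0.98 ± 0.107 (adjusted p = 6.23e-07) and delta over Ppy-rich 0.60 ± 0.119 (adjusted p = 0.000928). Ppy-rich barcodes averaged 100.4 ± 17.9 CPM, above beta (beta over Ppy-rich -0.41 ± 0.112, adjusted p = 0.00483) and above alpha barcodes (alpha over Ppy-rich -0.38 ± 0.113, adjusted p = 0.017). Without WT 1 month these were -0.26 (adjusted p = 0.0579) and -0.26 (adjusted p = 0.103), and the alpha call was also lost without CCR2-DTR 6 months (0.0693) and without the library block (0.062). Beta and alpha barcodes were not told apart (-0.03, adjusted p = 0.78); with all UMIs as the total, beta was lower (-0.43, adjusted p = 0.00214).

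**Figure D3:**
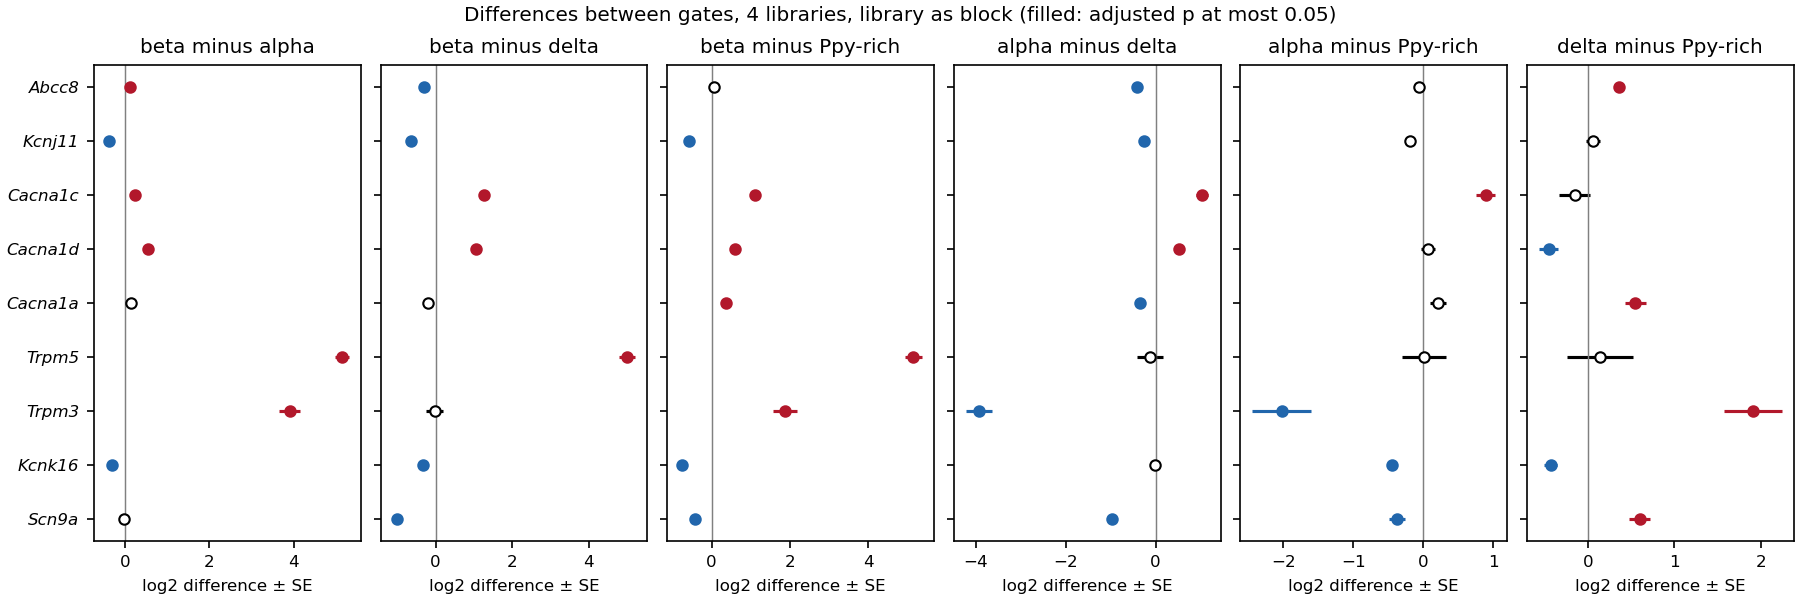
Fitted log2 difference (x axis, with SE; scales differ between panels) of each channel gene in the 6 pairwise contrasts of hormone gates, n = 4 libraries with library as block. Filled points have an adjusted p of at most 0.05; Trpm5 stands near 5 in the 3 beta contrasts, Trpm3 near -4 for alpha minus delta, and Scn9a near -1 for beta and for alpha minus delta.

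Counted over the 9 genes, 7 were called for beta against alpha barcodes, 5 higher and 2 lower, where 59.2% of all genes tested were called (30.2% higher, 29% lower). For beta against delta barcodes 7 were called, 3 higher and 4 lower, beside 50.8% of all genes (25.6% higher, 25.2% lower). For beta against Ppy-rich barcodes 8 were called, 5 higher and 3 lower, beside 51.7% (26.7% higher, 25% lower). For alpha against delta barcodes 7 were called, 2 higher and 5 lower, beside 40% (19.3% higher, 20.7% lower). For alpha against Ppy-rich barcodes 4 were called, 1 higher and 3 lower, beside 28.4% (13.9% higher, 14.5% lower). For delta against Ppy-rich barcodes 6 were called, 4 higher and 2 lower, beside 26.8% (13.7% higher, 13% lower). As 26.8% to 59.2% of all genes were called in these contrasts, a call by itself says little about a channel gene. The 9 genes were chosen with earlier results of these data known, so no conclusion is drawn from their counts. The size and direction above carry the result. The median log2 difference of the 9 genes lay between -0.25 and 0.36 over the 6 contrasts, and that of all genes between -0.0037 and 0.0050.

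Each genotype and age had 1 library, and the libraries were compared in pairs without a test. The CPM ratio was taken with its exact 95% interval for 2 Poisson counts, and a gene was counted as past the fold at 1.5-fold or more with an interval that left out 1 and at least 20 UMIs over both libraries. Each library entered 2 of the 4 comparisons. Over the 36 pairs of gene and gate, 3 were past the fold for CCR2-DTR over WT at 1 month, beside 6% of all genes in these gates, and 0 at 6 months, beside 4.66%. For 6 months over 1 month, 1 pair was past it in CCR2-DTR, beside 12.5%, and 4 in WT, beside 11.6%. In beta barcodes 0 of the 9 genes were past it in each comparison. Of all genes in beta barcodes, 7.43% were past it for CCR2-DTR over WT at 1 month and 5.49% at 6 months, and 17.1% for age in CCR2-DTR and 16.8% in WT.

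**Figure D4:**
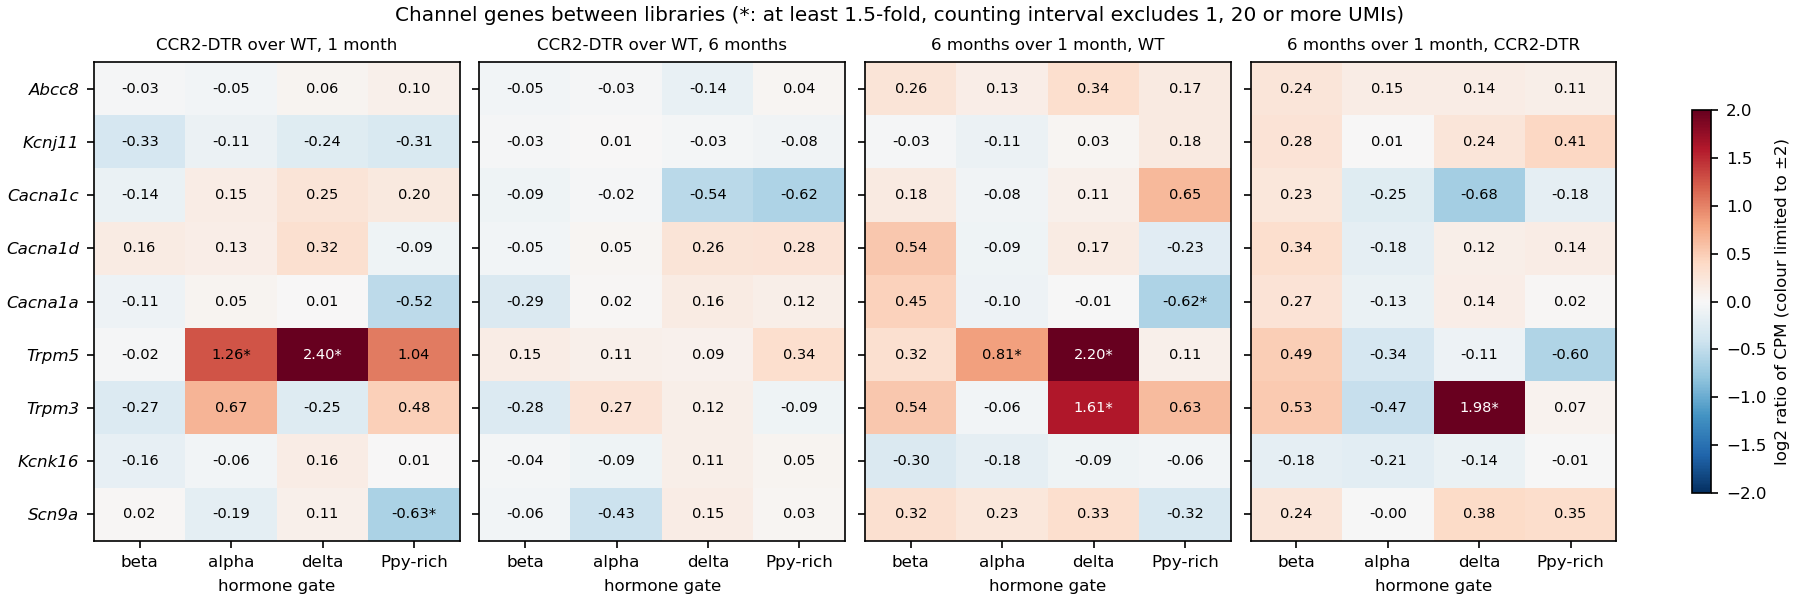
Log2 ratio of CPM of each channel gene (rows) in each hormone gate (columns) for the 4 comparisons of single libraries, printed in each cell; colour stops at ±2. Asterisks mark ratios of at least 1.5-fold whose counting interval leaves out 1; Trpm3 in delta barcodes is 1.98 in CCR2-DTR and 1.61 in WT for 6 months over 1 month, and no beta cell is marked.

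Trpm3 in delta barcodes was past the fold for age in both genotypes. The CCR2-DTR 6 months library had 86 UMIs in 144 delta barcodes, against 31 UMIs in 380 barcodes of CCR2-DTR 1 month, a 3.94-fold higher level (log2 ratio 1.98, interval 1.37 to 2.62). The WT 6 months library had 109 UMIs in 193 barcodes, against 30 UMIs in 290 barcodes of WT 1 month, a 3.04-fold higher level (log2 ratio 1.61, interval 1.01 to 2.24). Both 6 months libraries thus stood above both 1 month libraries. The intervals do not cover differences between pools of mice. At equal depth, with 0 to 10 shallower delta barcodes left out per library, the share of delta barcodes with a Trpm3 UMI was 12.5% (exact binomial interval 7.58 to 19.0) in CCR2-DTR 6 months, against 2.70% (1.304 to 4.91) in CCR2-DTR 1 month. In WT it was 9.42% (5.68 to 14.5) at 6 months, against 3.91% (1.97 to 6.90) at 1 month, while endothelial barcodes had 0.201% to 0.702% in the 4 libraries. Before thinning, the delta shares were 40.3% and 6.84% in CCR2-DTR and 40.4% and 8.28% in WT for 6 months and 1 month, at median depths of 11201, 5993.5, 11564 and 6215.5 UMIs. Over the alternatives run, the log2 ratio lay between 1.80 and 2.365 in CCR2-DTR and between 1.29 and 2.19 in WT.

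Other values moved with age in the same delta barcodes. Delta markers summed to 5882 and 5911 CPM at 6 months (CCR2-DTR, WT), against 8387 and 8046 CPM at 1 month. Stromal markers summed to 60.6 and 4.40 CPM at 6 months, against 196 and 298 CPM at 1 month, and endothelial markers to 25.002 and 35.8 CPM, against 226 and 268 CPM. Their part in the Trpm3 difference was not tested. Stromal barcodes held 2.62 to 11.3 CPM of Trpm3. Median insulin shares of delta barcodes were 2.29% and 2.14% at 6 months, against 3.86% and 1.62% at 1 month, and Trpm5, the beta gene above, was 12.9 against 13.9 CPM in CCR2-DTR and 12.1 against 2.63 CPM in WT. In beta barcodes Trpm3 was 0.53 (interval 0.36 to 0.69) log2 higher at 6 months in CCR2-DTR and 0.54 (0.38 to 0.70) in WT, below the fold used, and with barcodes of at least 5000 UMIs 0.43 and 0.25.

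The remaining pairs past the fold were of other kinds. Trpm5 in alpha barcodes was 11.3 CPM in CCR2-DTR 1 month, against 4.72 CPM in WT 1 month (log2 ratio 1.26, interval 0.85 to 1.69). In delta barcodes it was 13.9 CPM, against 2.63 CPM, the last from 4 UMIs (log2 ratio 2.40, interval 0.87 to 4.38). The WT 1 month library was also the low one for age in WT, by log2 ratios of 0.81 in alpha and 2.20 in delta barcodes. Endothelial barcodes had 13.4 CPM of Trpm5 in CCR2-DTR 1 month, against 5.80 CPM in WT 1 month. In the same libraries stromal barcodes had 14.8 against 11.1 CPM, and macrophage barcodes 25.3 against 0 CPM (floor 5.29 CPM). The median insulin share of alpha barcodes was 2.89% in CCR2-DTR 1 month, against 1.19% in WT 1 month. The part of RNA from other cells in these Trpm5 ratios was not tested.

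In Ppy-rich barcodes, Scn9a stood at 79.3 CPM (112 UMIs) in CCR2-DTR 1 month, against 123 CPM (207 UMIs) in WT 1 month, a log2 ratio of -0.63 (interval -0.98 to -0.29). Over the alternatives it lay between -0.66 and -0.29. Cacna1a stood at 128 CPM (255 UMIs) in WT 6 months, against 197 CPM (331 UMIs) in WT 1 month, a log2 ratio of -0.62 (interval -0.86 to -0.38), which became -0.32 when each barcode went to its dominant hormone. For both genes WT 1 month was the highest of the 4 Ppy-rich libraries.

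In beta barcodes, the log2 ratios of CCR2-DTR over WT ran from -0.33 for Kcnj11 (interval -0.44 to -0.22) to 0.16 for Cacna1d (0.10 to 0.21) at 1 month. At 6 months they ran from -0.29 for Cacna1a (-0.37 to -0.22) to 0.15 for Trpm5 (0.09 to 0.21), and Kcnj11 was -0.03 (-0.18 to 0.12). No ratio of the ATP-sensitive channel genes between genotypes thus exceeded 1.5-fold in beta barcodes at either age, with counting intervals that leave out 1.5-fold. For 6 months over 1 month, Trpm5 was 0.49 (0.43 to 0.54) in CCR2-DTR and 0.32 (0.26 to 0.37) in WT, and Kcnk16 was -0.18 (-0.25 to -0.12) and -0.30 (-0.37 to -0.23). The median over the 9 genes was 0.27 in CCR2-DTR and 0.32 in WT, beside 0.03 and 0.09 over all genes tested. With barcodes of at least 5000 UMIs it was 0.21 and 0.20, beside 0.02 and 0.05. Between single pools of 2 to 3 mice, no difference between libraries, in any gate and of any size, can be told apart from a difference between pools.

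At 6 months, beta barcodes under 5000 UMIs had a different channel profile. They had 603 CPM of Cacna1d in CCR2-DTR and 557 CPM in WT, against 219 and 198 CPM in deeper barcodes of the same libraries. Cacna1a was 469.9 CPM in CCR2-DTR and 558 CPM in WT, against 173 and 179 CPM, and Cacna1c was 86.7 and 101 CPM, against 39.1 and 34.97 CPM. Trpm3 and Scn9a were higher there too, at 72.3 and 90.3 CPM, against 33.9 and 36.04 CPM, and at 111 and 122 CPM, against 77.0 and 75.7 CPM. Kcnk16, Trpm5 and Kcnj11 went the other way: Kcnk16 was 43.4 and 69.1 CPM, against 191 and 208 CPM, Trpm5 151 and 111 CPM, against 379 and 366 CPM, and Kcnj11 41.6 and 38.2 CPM, against 55.6 and 58.9 CPM. At 6 months, the genes that were higher span 154883 bases (Scn9a) to 856365 bases (Trpm3) of the genome, and the genes that were lower 6812 (Kcnj11) to 25490 bases (Trpm5); Abcc8, which spans 75511 bases, was 466 and 517 CPM, against 432 and 437 CPM. The low-depth barcodes had median insulin shares of 17.2% and 15.7%, against 46.9% and 47.1%. At 1 month, where 515 of 3445 beta barcodes in CCR2-DTR and 125 of 3626 in WT lay under 5000 UMIs, this split did not hold throughout. In CCR2-DTR 1 month, Cacna1d was 302 CPM in low-depth barcodes, against 189 CPM in deeper ones. Cacna1a was 229 against 157 CPM and Cacna1c 39.6 against 35.9 CPM. Kcnk16 was 135 against 208 CPM, Trpm5 122 against 265 CPM and Kcnj11 28.3 against 45.7 CPM. These genes differed in the same direction as at 6 months. Trpm3, however, was 24.1 CPM (17 UMIs), against 25.2 CPM, Scn9a 63.7 (45 UMIs) against 67.3 CPM and Abcc8 256 against 371 CPM. In WT 1 month, Cacna1a was 141 CPM (26 UMIs), against 172 CPM, and Kcnj11 65.3 CPM (12 UMIs), against 56.8 CPM. Cacna1c, Cacna1d, Trpm3 and Scn9a were higher and Kcnk16 and Trpm5 lower in low-depth barcodes of that library, on 8 to 40 UMIs.

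Several ratios between libraries differed without these barcodes. With barcodes of at least 5000 UMIs, the log2 ratio of 6 months over 1 month in WT was 0.20 for Cacna1d, where it had been 0.54, and 0.06 for Cacna1a, where it had been 0.45. Cacna1c was -0.18 in these barcodes and 0.18 in all, Scn9a 0.20 and 0.32, and Kcnk16 -0.15 and -0.30. In CCR2-DTR, Cacna1d was 0.21 in these barcodes and 0.34 in all, and Cacna1a 0.14 and 0.27. Trpm5 stayed higher at 6 months, by 0.52 in CCR2-DTR and 0.47 in WT. For CCR2-DTR over WT at 6 months, Cacna1a was -0.04 in these barcodes and -0.29 in all, Trpm3 -0.09 and -0.28, Trpm5 0.05 and 0.15, Cacna1c 0.16 and -0.09, and Cacna1d 0.14 and -0.05.

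The genes whose level was most like that of each member over the 16 sums of gate and library were found among 9539 genes by Pearson's r of log2(CPM + 1). These values describe 16 sums that share libraries and carry no test. Trpm5 was most like Slc2a2 (r = 0.987), the beta cell glucose transporter, G6pc2 (0.987), the islet glucose-6-phosphatase, and Ucn3 (0.982), a peptide of mature beta cells. Kcnk16 was most like Tmem176a (0.973), Kank1 and Foxa3, and Trpm3 like Plppr4 (0.975), Sntg1 and Cabp1. Scn9a was closest to Fgf9 (0.957), Spata6 and Zfhx4, Abcc8 to Jam2 (0.961), Pcsk6 and Lrp6, and Kcnj11 to Slc29a4 (0.951), Serpinb9 and Plekhb1. For the calcium channels the closest were Zfp516 (0.947), Slc30a8, the zinc transporter of insulin granules, and Pitrm1 for Cacna1c, Glt1d1 (0.947), Robo1 and Carmil3 for Cacna1d, and Ube3a (0.899), Zfx and Mef2a for Cacna1a.

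The 9 genes were set beside 140 other genes of 7 lists (potassium, calcium, sodium, transient receptor potential, chloride and other, ligand-gated, and upstream or calcium-handling genes), 105 of which had counts enough to be tested. Of these, 39 were higher and 42 lower in beta than in alpha barcodes, beside 30.2% and 29% of all genes. Beta against delta gave 28 higher and 52 lower, beside 25.6% and 25.2%, and beta against Ppy-rich 30 and 40, beside 26.7% and 25%. Alpha against delta gave 22 higher and 47 lower, beside 19.3% and 20.7%, and alpha against Ppy-rich 22 and 27, beside 13.9% and 14.5%. Delta against Ppy-rich gave 41 and 18, beside 13.7% and 13%. The median log2 difference of the 105 genes was -0.39 for beta over delta, -0.31 for alpha over delta and 0.28 for delta over Ppy-rich barcodes, beside 0.00 over all genes in each. With plain totals in place of TMM scaling, the median over all genes itself was -0.14, -0.21 and 0.11 in those contrasts.

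Of the 14 other calcium channel genes tested, 1 was higher and 12 lower in beta than in delta barcodes (median -2.26), beside 25.6% and 25.2% of all genes. Against alpha barcodes 2 were higher and 10 lower (median -0.78), beside 30.2% and 29%. Against Ppy-rich barcodes 0 were higher, 7 were lower and 7 were not called (median -1.14), beside 26.7% and 25%. Cacna2d2, an auxiliary subunit, averaged 0.942 ± 0.198 CPM in alpha, 72.5 ± 11.7 CPM in delta and 2.78 ± 0.967 CPM in Ppy-rich barcodes (SD, n = 4 libraries each; alpha over delta -6.00 ± 0.208, adjusted p = 2.35e-13). Cacna2d4, another auxiliary subunit, averaged 0.363 ± 0.154 CPM in beta, 11.96 ± 2.44 CPM in alpha and 0.267 ± 0.533 CPM in delta barcodes (beta over alpha -5.01 ± 0.265, adjusted p = 1.301e-11; alpha over delta 5.46 ± 0.51, adjusted p = 8.80e-08). Of the 8 other sodium channel genes, 1 was higher and 7 lower in beta than in alpha barcodes (median -2.35), beside 30.2% and 29%. Against delta barcodes 1 was higher and 5 lower (median -1.62), beside 25.6% and 25.2%. Against Ppy-rich barcodes 1 was higher and 5 lower (median -3.01), beside 26.7% and 25%. The counts and medians of the calcium and sodium lists can include genes that passed the filter through 1 gate alone. No conclusion is drawn from them.

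Among 28 other potassium channel genes, 12 were higher and 9 lower in beta than in alpha barcodes (median 0.09), beside 30.2% and 29% of all genes. Against delta barcodes 9 were higher and 15 lower (median -0.77), beside 25.6% and 25.2%, and against Ppy-rich barcodes 9 were higher and 14 lower (median -0.97), beside 26.7% and 25%. Kcnk3, an acid-sensitive relative of Kcnk16, averaged 5.15 ± 0.833 CPM in beta barcodes, against 221 ± 47.2 CPM in alpha barcodes (log2 difference -5.46 ± 0.134, adjusted p = 8.98e-16). Kcnj3, a G protein-gated inward rectifier, averaged 0.440 ± 0.397 CPM in beta barcodes, against 22.5 ± 11.1 CPM in alpha barcodes (adjusted p = 7.07e-13). Kcnip1, an accessory protein of A-type channels, went the other way, with 59.9 ± 12.6 CPM in beta barcodes, against 2.25 ± 0.798 CPM in alpha barcodes (adjusted p = 2.13e-13). Kcng3, a silent subunit of delayed rectifiers, had 260 UMIs in beta barcodes and 0 in alpha barcodes, at least 51.8-fold higher in beta when alpha is set at the floor of 3 counts over its 4 libraries.

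Several voltage-gated potassium channel genes were higher in delta barcodes. Kcnd2 was 0.151 ± 0.0401 CPM in beta, 0.254 ± 0.103 CPM in alpha and 22.3 ± 11.6 CPM in delta barcodes, and Kcna5 0.403 ± 0.223 CPM in beta, against 47.6 ± 13.9 CPM in delta barcodes. Kcnc2 was 0.463 ± 0.0661 CPM in alpha, against 37.4 ± 7.76 CPM in delta barcodes, and Kcnb2 77.0 ± 8.70 CPM in delta, against 4.04 ± 1.65 CPM in Ppy-rich barcodes. Kcnh6 was low in delta barcodes at 1.06 ± 0.748 CPM, against 29.8 ± 7.66 CPM in Ppy-rich barcodes. Trpa1, an irritant-sensing transient receptor potential channel, averaged 0.0957 ± 0.0967 CPM in beta, against 11.4 ± 4.39 CPM in delta barcodes. The differences named for delta barcodes were called, with adjusted p between 2.54e-12 and 3.63e-08.

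**Figure D5:**
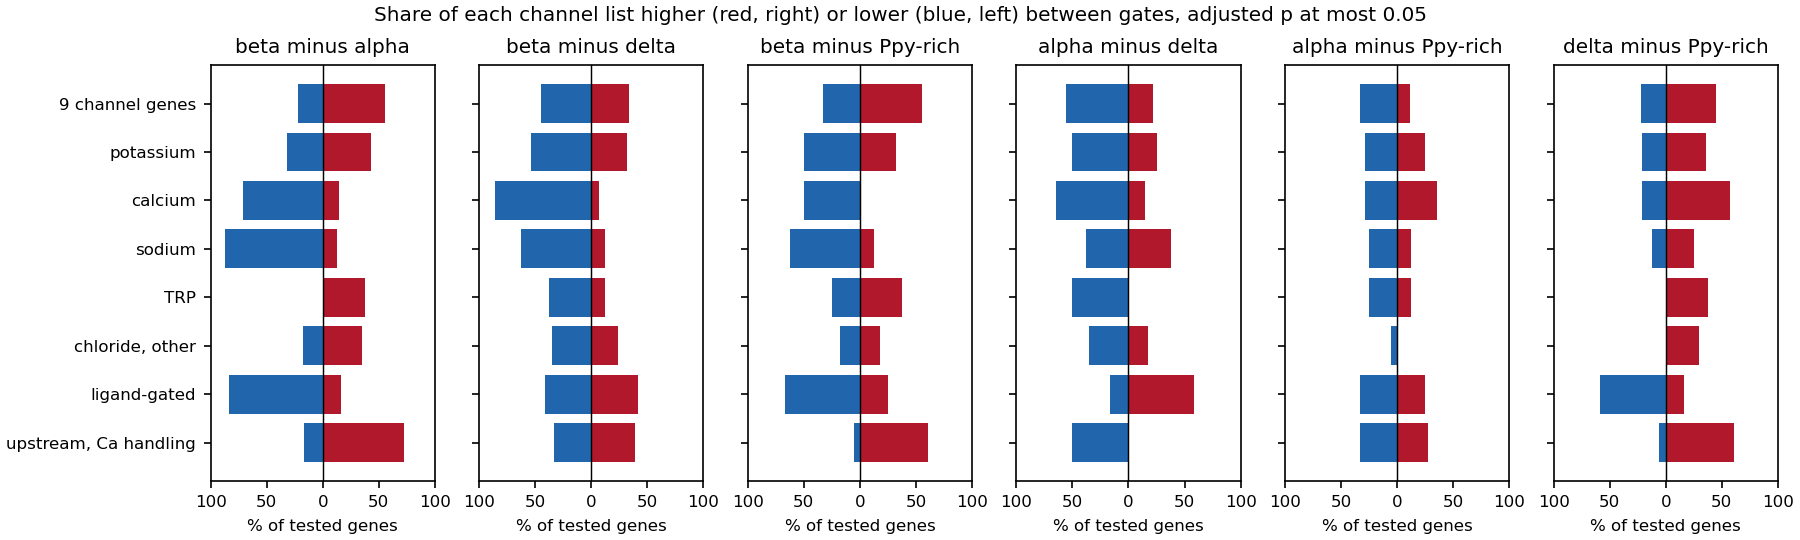
Share of the tested genes of each channel list (rows; the 9 channel genes at the top) that were called higher (right, red) or lower (left, blue) in each contrast of hormone gates (x axis, percent of tested genes). The calcium list has 12 of 14 genes lower and 1 higher for beta minus delta, beside 25.2% and 25.6% of all genes. The upstream list has 13 of 18 higher for beta minus alpha, beside 30.2%.

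Of the 18 genes tested upstream of the channels or in calcium handling, 13 were higher and 3 lower in beta than in alpha barcodes (median 0.63), beside 30.2% and 29% of all genes. Against Ppy-rich barcodes 11 were higher and 1 lower (median 0.50), beside 26.7% and 25%. Against delta barcodes 7 were higher and 6 lower (median 0.01), beside 25.6% and 25.2%. Slc2a2 averaged 960.4 ± 66.7 CPM in beta, against 28.7 ± 11.4 CPM in alpha barcodes, and G6pc2 1658 ± 62.8 CPM in beta, against 62.0 ± 28.5 CPM in alpha barcodes, with adjusted p of 4.47e-14 and 7.28e-14. Both genes also stand among the beta markers summed above. The list and the markers were chosen with earlier results of these data known. The calls of these genes are thus no independent support, and the count without them was not taken. Of the 12 ligand-gated receptor genes tested, 2 were higher and 10 lower in beta than in alpha barcodes (median -1.12), beside 30.2% and 29%. In alpha barcodes 7 were higher and 2 lower than in delta barcodes, beside 19.3% and 20.7%.

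Between libraries, 12 of the 98 other channel genes tested in beta barcodes were past the fold upward and 1 downward for CCR2-DTR over WT at 1 month, beside 6.07% and 1.35% of all genes. At 6 months 1 of 91 was past it upward and 9 downward, beside 1.52% and 3.97%. Kcnj8 and Abcc9, which form the ATP-sensitive channel of pericytes and smooth muscle, were at 1.41 and 3.00 CPM in CCR2-DTR 1 month, against 0.168 and 0.470 CPM in WT 1 month, and Ano1, a calcium-activated chloride channel, at 2.10 CPM, against 0.336 CPM. Stromal markers in the same beta barcodes summed to 270.1 CPM, against 87.2 CPM, with 8 of 8 detected in both, and their part in these ratios was not tested. In barcodes of at least 5000 UMIs, Kcnj8 was 0.442 CPM in CCR2-DTR 1 month, against 0.169 CPM in WT 1 month (10 and 5 UMIs, interval of the log2 ratio -0.30 to 3.29), Abcc9 0.972 against 0.4396 CPM and Ano1 1.15 against 0.338 CPM. For 6 months over 1 month in WT beta barcodes, 18 of 92 were past the fold upward and 0 downward, beside 11.3% and 5.54%, and in CCR2-DTR 14 of 95 upward and 12 downward, beside 6.72% and 10.4%. Kcna2 stood at 10.3 CPM in CCR2-DTR 6 months, against 2.10 CPM in CCR2-DTR 1 month, and Glrb, the glycine receptor beta subunit, at 29.6 CPM, against 11.7 CPM. With beta barcodes of at least 5000 UMIs, 6 of 95 were past the fold upward and 2 downward for CCR2-DTR over WT at 1 month, beside 3.23% and 1.39% of all genes, and 1 of 86 upward and 6 downward at 6 months, beside 1.45% and 2.69%. For age, 13 of 91 were past it upward and 9 downward in CCR2-DTR, beside 5.95% and 9.8%, and 8 of 91 upward and 0 downward in WT, beside 5.93% and 6.59%. In delta barcodes, 11 of 77 were past the fold upward with age and 2 downward in CCR2-DTR, beside 5.47% and 5.73% of all genes, and 10 of 77 upward and 0 downward in WT, beside 5.68% and 4.31%.

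Several of the 9 genes overlap genes on the opposite strand. Gm45486 lies within Abcc8 and had 25.9 to 80.8 CPM in beta barcodes, and Dcp1a and Dcp1b overlap Cacna1d and Cacna1c. No other gene overlaps Kcnj11 or Kcnk16 in the annotation. The counts give 1 level per gene, so splice forms of the calcium, sodium and melastatin channels were not resolved.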

How the data were processed

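The authors made the deposited counts, whole UMIs per gene and barcode, with Cell Ranger 5.0.1 on mm10, per the submitters' processing notes; for the annotation release, strand and introns, counting settings were not given in the sources used here. Gene and barcode names make up the other deposited files. Barcodes with at least 1000 UMIs, 500 genes, at most 15% mitochondrial UMIs and a Scrublet score of at most 0.25 were kept, which removed 87 to 363 likely doublets per library, and gated by hormone share. Barcodes past no gate (488 to 1137 per library) or past more than 1 (456 to 1131) were left out. Endothelial, macrophage and stromal barcodes were those with at least 5 UMIs of their markers. CPM was taken without Ins1, Ins2, Gcg, Sst, Ppy, Pyy and Iapp, since these defined the gates and held much of the RNA.

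The 16 sums of gate and library were fitted with edgeR 4.0.16 in R 4.3.3 (TMM, filterByExpr, quasi-likelihood) with library as block, because the gates of 1 library share mice and run; that pairing comes from the design. Positive and negative log2 differences follow the order named. Alternatives were DESeq2 1.42.0, RLE factors, no filter on low counts, no block, each library left out, hormone genes kept, other gates, depth, mitochondrial and doublet limits, thinning to 2000 UMIs, and other folds and UMI minimums. Plain totals and all UMIs as totals for the fit, and the depth limit for the other channel genes, were added after seeing the data. The labels do not say that libraries had separate preparations. With library as block, p-values measure how far the differences between gates vary over these 4 pooled libraries. Each library had its own genotype and age, so that spread also holds any effect of these on a gate difference. Intervals and floors of 3 counts cover counting error only. The edgeR fit was tested on simulated counts without library effects, read out for beta against alpha only. That check does not cover the contrasts of delta and Ppy-rich barcodes.

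The 9 genes, the 7 lists and the markers were chosen with earlier results of these data known. The rule for other names was at most 4 genes each way by fitted log2 difference among called genes in each gate contrast, at most 3 each way in beta barcodes in each library comparison, and the 3 most alike genes by correlation among genes with a mean of at least 10 CPM. All 149 list genes and 76 markers were found. Gene positions are from GENCODE for GRCm38. RefSeq promoter windows (GRCm38.p6) matched 6 of the 9 genes, with 10 windows; Abcc8, Kcnj11 and Cacna1a are named only.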

Additional observations from a re-analysis of the deposited data

Results flagged for a closer look

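In 36 groups of 4 libraries (9 genes in 4 gates), 6 had 1 library set apart by Dixon's gap. The gap is the distance to its neighbour relative to the whole range. With 4 replicates of 1 normal population, about 1 of 20 groups would show such a gap. These libraries differed in genotype and age and recurred in every group, so 6 of 36 cannot be set against that rate. In 2 of the 6 groups the exact Poisson counting intervals of the library and its neighbour did not overlap. Cacna1a in Ppy-rich barcodes was high in WT 1 month, at 196.6 CPM (interval 176 to 219), where the next library had 139.3 CPM (120.1 to 161). Trpm5 in delta barcodes was low in WT 1 month, at 2.626 CPM (0.715 to 6.72), where the next had 12.1 CPM (7.58 to 18.3); endothelial barcodes held 5.80 to 14.8 CPM. In the other 4 the intervals overlapped. Kcnj11 in alpha barcodes was 69.87 CPM (65.7 to 74.2) in WT 1 month, beside 65.05 CPM (60.3 to 70.1), and in delta barcodes 79.99 CPM (67.7 to 93.9) in CCR2-DTR 1 month, beside 94.53 CPM (79.7 to 111). Cacna1a in delta barcodes was 256.1 CPM (229.5 to 285) in CCR2-DTR 6 months, beside 232.5 CPM (211 to 255). Kcnk16 in Ppy-rich barcodes was 336.4 CPM (311 to 363) in WT 6 months, an interval that covers the other 3 libraries, the next at 348.9 CPM.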

How the results depend on the processing

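Of the 918 alternative values for single genes between gates, 858 were counted as the same, on the same side of the threshold. A value called in neither fit was counted there even where its sign changed. A further 38 kept the direction but lost the call, and 17 kept it and gained a call. The other 5 reversed in direction, with a call in at least 1 of the fits. The reversals all came with all UMIs as totals and no TMM, an alternative added after seeing the data, where the fit carries the hormone share: beta over alpha was -0.27 for Abcc8 and -0.17 for Cacna1c, beta over Ppy-rich -0.20 for Abcc8, and delta over Ppy-rich 0.0649 for Cacna1d and 0.0887 for Kcnk16. That choice moved the median of all genes to -0.40 (beta over alpha), -0.78 (beta over delta), -0.26 (beta over Ppy-rich), -0.38 (alpha over delta), 0.13 (alpha over Ppy-rich) and 0.52 (delta over Ppy-rich). TMM medians lay between -0.0037 and 0.0050. With TMM, calls higher and lower over all genes were 4120 and 3966 for beta over alpha, 3495 and 3448 for beta over delta, 3648 and 3420 for beta over Ppy-rich, 2639 and 2827 for alpha over delta, 1897 and 1987 for alpha over Ppy-rich and 1873 and 1782 for delta over Ppy-rich. All UMIs gave 1902 and 7874, 746 and 10163, 1950 and 5486, 954 and 6814, 2938 and 1292, and 7738 and 492 in that order. Plain totals without hormones and TMM gave 2516 and 4567 for beta over delta, 1405 and 4773 for alpha over delta, 1284 and 2799 for alpha over Ppy-rich and 2610 and 1296 for delta over Ppy-rich.

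Asking for a 2-fold difference as well left 2 of 9 channel genes for beta against alpha, beside 1290 genes higher and 1383 lower. It left 4 for beta against delta, beside 996 and 1562, and 3 for beta against Ppy-rich, beside 1172 and 1398, of 13658 genes tested. Alpha against delta kept 2, beside 739 and 1299. Alpha against Ppy-rich kept 1, beside 483 and 635, and delta against Ppy-rich 1, beside 853 and 517. Leaving out each library gave 5 to 6, 7 to 8, 7 to 8, 5 to 7, 3 to 5 and 6 to 6 calls in that order, and no replicate block (the library) gave 5, 7, 8, 6, 3 and 6. Without 1 library, calls higher over all genes were 3537 to 4007, 2918 to 3245 and 2992 to 3286 in the beta contrasts. Calls lower were 3472 to 3779, 2980 to 3107 and 2948 to 3081. Alpha against delta gave 2108 to 2216 higher and 2357 to 2478 lower. Alpha against Ppy-rich gave 1413 to 1560 and 1489 to 1636, and delta against Ppy-rich 1420 to 1573 and 1326 to 1479. No block gave 3358 and 3168, 3056 and 2960, 3122 and 3008, 2100 and 2325, 1393 and 1517, and 1556 and 1418. Between libraries, a laxer limit, a ratio of 5 to 4, gave 5 pairs for CCR2-DTR over WT at 1 month and 1 at 6 months, and 9 for age in WT and 6 in CCR2-DTR. At 6 months thinning gave 1, for age in WT 2-fold gave 2 and all UMIs as totals 7, and for age in CCR2-DTR dominant gates gave 4. The cause was not tested, and shares of all genes between libraries were not taken under these limits and settings. Of 1152 alternative ratios, 1048 moved by less than their counting interval and 104 by more, 39 of them after thinning. Depth limits the delta and Ppy-rich ratios, where 1 library's floor reaches 2.27 CPM.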
